A study of Mus musculus with 12 samples.

Results

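Slpi, Wfdc18 and Wfdc2 are 3 mouse genes that encode small secreted proteins with whey acidic protein (WAP) domains. They were chosen by name from the 912 features listed in the Control and DSS files (991 features in the whole series), because the RNA of Slpi and Wfdc18 was higher and that of Wfdc2 lower in colitis. The direction of each gene in that contrast is therefore how the genes were picked, and their levels are given as a description without a test. All 3 genes were found in all 6 libraries of these groups. None of the 3 is in the feature lists of the libraries from decoction-treated mice, so they were not analysed there.

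The WAP domain is a compact fold held together by disulfide bonds between cysteines, and it occurs in inhibitors of serine proteases and in antibacterial proteins of mucosal surfaces. Slpi (secretory leukocyte protease inhibitor) blocks elastase and cathepsin G of neutrophils, is made by mucosal epithelium and by macrophages and neutrophils, and restrains NF-kB signalling. Wfdc2 is a secreted epithelial WAP protein, known as a serum marker of ovarian cancer. Wfdc18, also called extracellular proteinase inhibitor, is best known from the mouse mammary gland.

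The study sequenced colon RNA of 12 libraries, 3 per group. Control mice received double-distilled water (ddH2O). DSS mice received 2.5% dextran sulfate sodium, which injures the colon lining, for 5 days followed by 5 days of water, in 3 such cycles. The other groups had the same course plus Banxia Xiexin Decoction (BXD), a multi-herb preparation, at 7.60 or 15.2 g/kg per day. Strain, sex, age and whether each library came from a separate mouse are not given in the labels, so the spread between libraries may be technical. The description texts of Control replicate 3 and DSS replicate 3 name the next group in the series, against their titles and treatment labels. Groups followed the titles, and values without these 2 libraries are given beside the results. The absorptive colonocyte genes Car4 and Slc26a3, which mark colon epithelium, were present in every library. In bulk tissue, fewer cells of a type and less RNA per cell cannot be told apart.

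The sequence just upstream of 1 RefSeq start site per gene (GRCm38.p6) is shown. The windows of Slpi and Wfdc18 differ in base composition from that of Wfdc2. Whether base composition goes with the direction of change over the listed features was not tested. Each run is 250 bases, written 5′ to 3′ on the gene's strand and ending at the last base before the start site, with CpG dinucleotides in capitals.
Slpi, chr2:164356508-164356757, minus strand: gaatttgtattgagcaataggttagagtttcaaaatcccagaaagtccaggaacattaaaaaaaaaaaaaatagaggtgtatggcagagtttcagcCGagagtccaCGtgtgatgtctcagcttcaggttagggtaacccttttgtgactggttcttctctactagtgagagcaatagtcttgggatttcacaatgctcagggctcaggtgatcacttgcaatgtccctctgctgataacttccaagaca
Wfdc18, chr11:83708754-83709003, plus strand: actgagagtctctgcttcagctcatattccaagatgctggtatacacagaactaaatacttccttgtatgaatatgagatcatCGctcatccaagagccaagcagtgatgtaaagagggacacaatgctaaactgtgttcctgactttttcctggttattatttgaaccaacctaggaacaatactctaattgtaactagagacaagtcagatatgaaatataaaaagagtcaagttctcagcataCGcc
Wfdc2, chr2:164562465-164562714, plus strand: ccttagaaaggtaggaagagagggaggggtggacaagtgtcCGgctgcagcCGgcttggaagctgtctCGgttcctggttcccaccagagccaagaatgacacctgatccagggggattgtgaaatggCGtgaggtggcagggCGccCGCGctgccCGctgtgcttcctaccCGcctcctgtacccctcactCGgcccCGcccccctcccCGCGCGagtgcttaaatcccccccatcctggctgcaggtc

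The Slpi window held 2 CpG dinucleotides and was 42% G and C, and the Wfdc18 window also held 2 and was 38.4% G and C. The Wfdc2 window held 14 CpG dinucleotides and was 64.8% G and C. Wfdc2 has 2 start sites recorded in RefSeq, against 1 each for Slpi and Wfdc18, and this window stands before 1 of them only. The annotated span of Slpi also reaches further upstream than its window, to 164389095, through an exon of 1 of its 3 transcripts. Over the upstream windows of 27025 genes, 1 per gene, the medians were 6 CpG dinucleotides and 52% G and C, and 16.6%, 9.57% and 82.7% of windows had a lower G and C content than those of Slpi, Wfdc18 and Wfdc2. Wfdc18 had a TATA motif (TATAAA) that began 31 bases before its start site, which 13.0% of all windows hold on either strand. Wfdc2 had a GC box (CCGCCC) that began 53 bases before its start site, which 32.9% of windows hold. Slpi had neither. None of the 3 windows held the AP-1 motif TGANTCA (6.87% of windows), the STAT motif TTCNNNGAA (7.18%) or the NF-kB consensus (7.01%). All motifs were searched on both strands, and these matches are a description of the letters in these windows only.

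Slpi (ENSMUSG00000017002) is annotated on chromosome 2 from 164354070 to 164389095 on the minus strand (mm10), a span that includes a distant upstream exon of 1 of its 3 transcripts and the microRNA gene Mir7678. Its RNA was at 5.01, 6.66 and 7.89 FPKM in Control replicates 1 to 3 and at 38.87, 61.25 and 49.75 FPKM in DSS replicates 1 to 3. FPKM divides a gene's fragments by its length in kilobases and by the library's total in units of 1000000. Every DSS library lay above every Control library, with the lowest DSS value 4.93 times the highest Control value. The means were 6.52 ± 1.45 and 49.96 ± 11.2 FPKM (SD over n = 3 libraries, here and below), a difference of 7.66-fold. Slpi moved from ranks 133 to 179 among the 912 listed features in Control libraries to ranks 69 to 85 in DSS libraries.

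Wfdc18 (ENSMUSG00000000983) lies on chromosome 11 from 83709015 to 83711348 on the plus strand. It was at 1.65, 2.26 and 1.97 FPKM in Control replicates 1 to 3 and at 13.93, 33.32 and 19.03 FPKM in DSS replicates 1 to 3. The groups did not overlap, the lowest DSS library being at 6.16 times the highest Control library. The means were 1.96 ± 0.305 and 22.1 ± 10.05 FPKM, an 11.3-fold difference. Wfdc18 was the most variable of the 3 genes in DSS, with a coefficient of variation of 45.5% against 22.4% for Slpi and 11.6% for Wfdc2, and DSS replicate 2 stood at 2.39 times DSS replicate 1.

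Wfdc2 (ENSMUSG00000017723) lies on chromosome 2 from 164562413 to 164568510 on the plus strand. It was at 72.06, 91.25 and 102.01 FPKM in Control replicates 1 to 3 and at 35.68, 32.23 and 40.60 FPKM in DSS replicates 1 to 3. All Control libraries lay above all DSS libraries, with the lowest Control value 1.78 times the highest DSS value. The means were 88.4 ± 15.2 and 36.2 ± 4.21 FPKM, 2.45-fold lower in DSS. Its DSS libraries were the closest together of the 3 genes, within 1.26-fold.

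**Figure D1:**
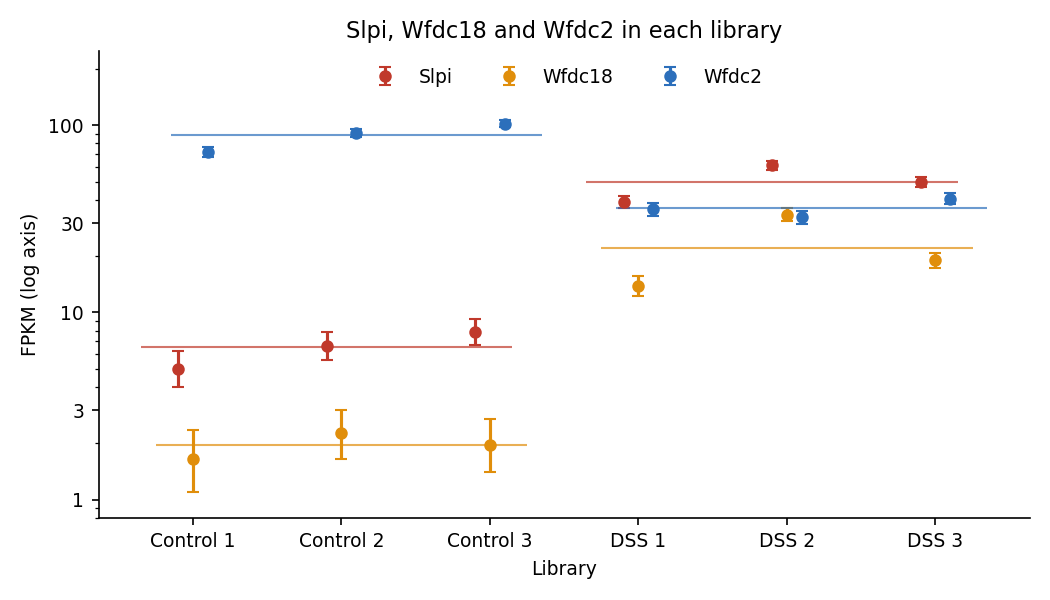
FPKM of Slpi, Wfdc18 and Wfdc2 (log axis) in the 3 Control and 3 DSS libraries; points are libraries, error bars are exact 95% Poisson intervals of the fragment counts, and horizontal lines are group means. Slpi and Wfdc18 lie below 10 FPKM in every Control library and above 13 FPKM in every DSS library, while Wfdc2 lies above 72 FPKM in Control and below 41 FPKM in DSS.

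As differences of mean log2(FPKM + 1), DSS minus Control, Slpi stood at 2.76 (SE 0.31), Wfdc18 at 2.88 (SE 0.33) and Wfdc2 at −1.26 (SE 0.31), with standard errors from limma's moderated fit. Without the 2 libraries of conflicting description they were 2.88, 2.95 and −1.23. Among the 576 features that passed a low-value filter (at least 1 FPKM in 3 or more libraries), Wfdc18 had the 28th and Slpi the 30th largest rise, and Wfdc2 the 36th largest fall. The background is high, because the lists hold features that differ: limma called 571 of the 576 (99.1%), 79.2% higher and 20.0% lower in DSS at an adjusted p under 0.05, and the 3 libraries of each group did not overlap in 95.2% of the 912 features (77.4% higher and 17.8% lower in DSS). Separation of the groups is thus shared by nearly all listed features and is not particular to these genes. For the same reason, the adjusted p-values given below for other genes are a description.

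Whole fragment counts could be recovered for all 3 genes, which gives the depth behind each value. With the exon length of all annotated transcripts combined (1180 bases for Slpi, 1220 for Wfdc18 and 1140 for Wfdc2) and library totals of 14388000 to 19164000 fragments, all 18 values fell within 0.08 of a whole fragment. Slpi had 85, 131 and 151 fragments in Control replicates 1 to 3 and 707, 1202 and 1125 in DSS replicates 1 to 3. Wfdc18 rested on far fewer in Control, with 29, 46 and 39, against 262, 676 and 445 in DSS. Wfdc2 had 1182, 1733 and 1887 in Control and 627, 611 and 887 in DSS. The 95% Poisson intervals of Wfdc18 overlapped among the Control libraries (19.4 to 41.7, 33.7 to 61.4 and 27.7 to 53.3 fragments), so its Control libraries could not be told apart at this depth. In FPKM, its DSS intervals (12.3 to 15.7, 30.9 to 35.9 and 17.3 to 20.9) did not overlap, so the DSS libraries differed from each other by more than counting error. Intervals cover counting error only.

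The ratio of 2 genes within a library does not depend on the library total, and it compares these genes without any scaling between libraries. Slpi stood at 0.0695, 0.0730 and 0.0773 of the Wfdc2 FPKM in Control replicates 1 to 3. Those 3 ratios lay within 1.11-fold of each other, and their exact 95% intervals from the fragment counts overlapped (0.0551 to 0.0866, 0.0607 to 0.0873 and 0.0651 to 0.0913), although both genes differed by 1.42-fold or more between the same libraries. In DSS replicates 1 to 3 Slpi stood at 1.09, 1.90 and 1.23 times Wfdc2. DSS replicate 2 (interval 1.72 to 2.10) lay apart from replicates 1 (0.977 to 1.21) and 3 (1.12 to 1.34). The geometric mean went from 0.0732 to 1.36, an 18.6-fold difference, so that Wfdc2, the far more abundant of the pair in Control, was the less abundant in DSS by this measure. Without the 2 libraries of conflicting description the log2 difference of the ratio was 4.34, against 4.22 with them.

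The ratio of Slpi to Wfdc18 changed little by comparison. It was 3.04, 2.95 and 4.01 in Control replicates 1 to 3 and 2.79, 1.84 and 2.61 in DSS replicates 1 to 3. The geometric means were 3.30 and 2.38, 1.39-fold lower in DSS, and the Control intervals reached from 1.97 to 5.85. DSS replicate 1 (2.42 to 3.23) and replicate 3 (2.34 to 2.92) lay inside that range, and replicate 2 (1.67 to 2.02) overlapped its lower end only. All 3 DSS ratios lay below all 3 Control ratios, most clearly in replicate 2. Without the libraries of conflicting description the log2 difference of this ratio was −0.40, against −0.47 with them.

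Wfdc2 exceeded Wfdc18 by 43.7, 40.4 and 51.8 times in Control replicates 1 to 3. In DSS replicates 1 to 3 the ratio was 2.56, 0.967 and 2.13. Every DSS library lay far below the Control libraries, and in DSS replicate 2 the genes were at about the same FPKM (interval 0.866 to 1.08). The log2 difference was −4.69, and −4.74 without the libraries of conflicting description.

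**Figure D2:**
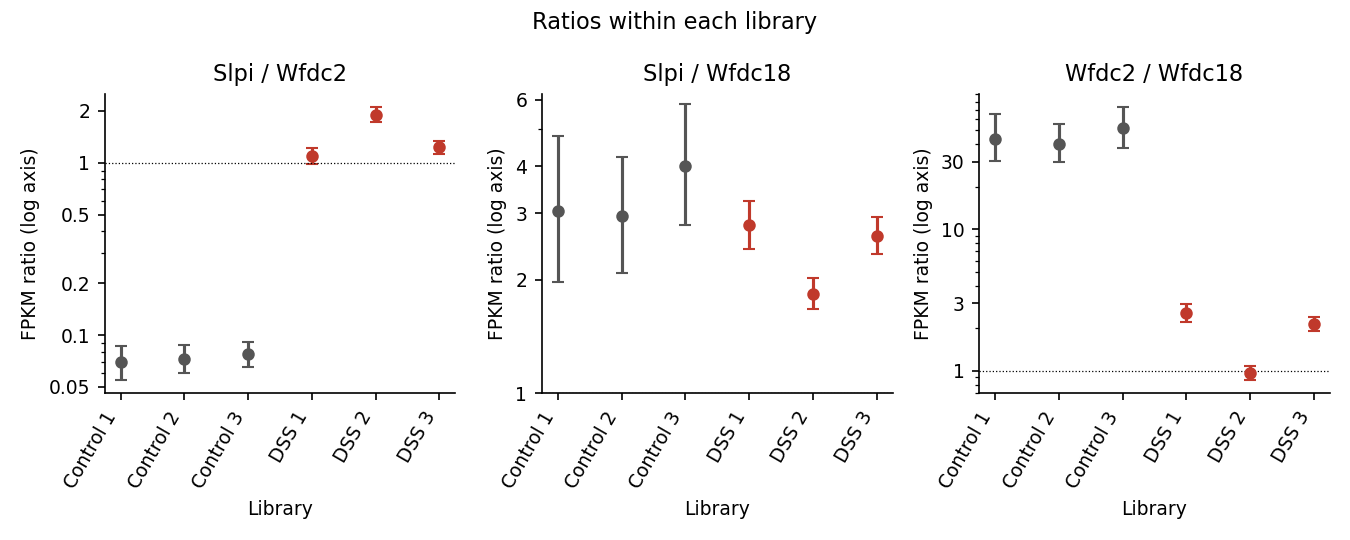
FPKM ratios (log axes) of Slpi to Wfdc2, Slpi to Wfdc18 and Wfdc2 to Wfdc18 in each library, Control in grey and DSS in red, with exact 95% intervals from the fragment counts; the dotted line marks a ratio of 1. The Slpi to Wfdc2 ratio lies at 0.0695 to 0.0773 in Control and at 1.09 to 1.90 in DSS, whereas the Slpi to Wfdc18 ratio spans 1.84 to 4.01 over all 6 libraries.

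Ratios between genes depend on the length that divides the fragments, unlike the change of a ratio between groups. The combined exon length of Wfdc18 is 1220 bases, which includes a retained intron, whereas its transcript paired with RefSeq has 3 exons and 521 bases. The corresponding transcripts of Slpi (4 exons) and Wfdc2 (5 exons) have 876 and 849 bases. Per transcript length the geometric mean ratio of Slpi to Wfdc18 was 1.90 in Control and 1.37 in DSS, and that of Wfdc2 to Wfdc18 was 25.8 in Control and 0.999 in DSS. The ratio of Slpi to Wfdc2 stayed at 0.0735 and 1.37. By transcript length, then, the order in Control was Wfdc2, Slpi, Wfdc18, and in DSS Slpi stood first with Wfdc2 and Wfdc18 at the same geometric mean. That equality holds for the mean only: the ratio of Wfdc2 to Wfdc18 was 1.47, 0.555 and 1.22 in DSS replicates 1 to 3. In DSS replicate 2 Slpi was only 1.06 times Wfdc18.

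The order of the DSS libraries also differed between the genes. Slpi and Wfdc18 were both highest in DSS replicate 2, then 3, then 1, an order shared by 19.1% of the 456 features that rose, and DSS replicate 2 was the highest library for 64.5% of them. Wfdc2 ran the other way at replicate 2, with replicate 3 highest, then 1, then 2, as did 45.2% of the 115 features that fell.

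To find the genes whose pattern was most like each of the 3, each gene was centred on its mean log2(FPKM + 1) over the 6 libraries and compared by the root mean square difference (RMS, in log2 units). Slpi and Wfdc18 were each other's nearest gene among 575 others (RMS 0.22), although they lie on different chromosomes. The median RMS to all others was 0.97 for Slpi and 1.04 for Wfdc18. With 0.1 FPKM as the added constant they were again nearest to each other (RMS 0.32). Most of that likeness was the group difference: with each gene centred within its group, Wfdc18 ranked 85 of 575 from Slpi (RMS 0.22) and Slpi ranked 76 of 575 from Wfdc18.

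After Wfdc18, the genes nearest to Slpi were ENSMUSG00000076526, a variable segment of the kappa light chain (RMS 0.34), and Cwh43, which acts in the lipid remodelling of membrane anchors (RMS 0.40). The kappa segment was at 7.21, 5.71 and 5.86 FPKM in Control and 41.1, 41.2 and 54.6 FPKM in DSS replicates 1 to 3, and near-identical segments can share its reads. Cwh43 was also the gene next nearest to Wfdc18 (RMS 0.39), at 2.17, 1.52 and 1.35 FPKM in Control and 10.5, 18.1 and 9.61 FPKM in DSS. Aldh1a3, a retinaldehyde dehydrogenase, followed (RMS 0.39), at 1.51, 3.12 and 1.66 FPKM in Control and 9.57, 33.8 and 9.76 FPKM in DSS. Like Wfdc18, Cwh43 and Aldh1a3 were highest in DSS replicate 2. The genes nearest to Wfdc2 were Mettl7a2, a methyltransferase-like gene (RMS 0.12), the homeobox gene Mkx (0.13) and the chromatin protein gene Hmga2 (0.14). All 3 were at low levels, at most 5.60 FPKM, with Mettl7a2 at 2.39, 4.46 and 4.37 FPKM in Control and 0.76, 0.57 and 0.98 FPKM in DSS replicates 1 to 3. The likeness in size depends on the added constant: with 0.1 FPKM the log2 changes were −2.12 for Mettl7a2, −1.46 for Mkx and −1.71 for Hmga2 against −1.28 for Wfdc2. From Wfdc2, Slpi and Wfdc18 ranked 536 and 543 of 575.

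**Figure D3:**
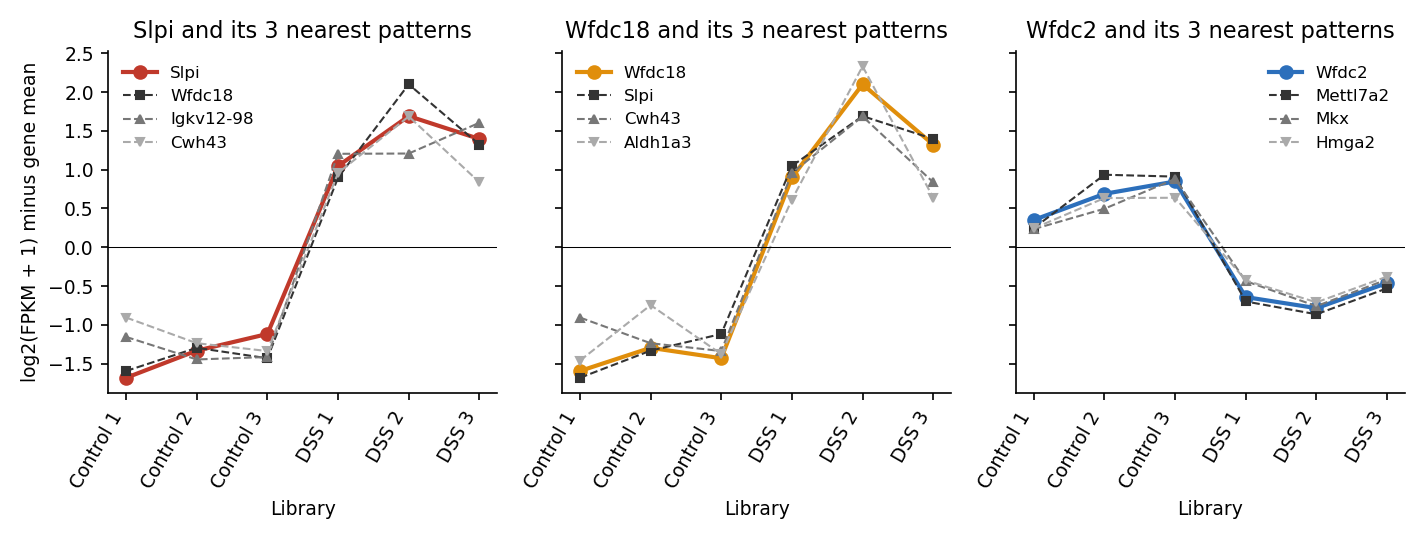
Patterns of Slpi, Wfdc18 and Wfdc2 (solid lines) and of the 3 genes nearest to each (dashed lines) over the 6 libraries, as log2(FPKM + 1) minus the gene's mean, with the kappa segment labelled by its symbol. Slpi and Wfdc18 appear in each other's panel as the nearest gene (RMS 0.22), and the genes nearest to Wfdc2 lie within an RMS of 0.14.

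Slpi and Wfdc2 belong to the WAP gene cluster of chromosome 2, their RefSeq start sites being 206 kb apart. Between their gene spans lie 8 protein-coding genes, of which 0 are among the 912 features. Within 500 kb of the Slpi start site there are 51 protein-coding genes, 16 of them on a list of 23 WAP domain genes, and only Slpi, Wfdc2 and Rims4 are among the 912 features. The other genes have no value here, so nothing can be said of their levels. Rims4, a synaptic scaffold gene, fell from 3.14, 3.28 and 4.19 FPKM in Control replicates 1 to 3 to 0.71, 0.33 and 1.43 FPKM in DSS replicates 1 to 3 (log2 change −1.35, limma adjusted p = 0.003404). Within 500 kb of the Wfdc2 start site there are 53 protein-coding genes, of which Slpi, Wfdc2 and Mmp9 are listed. Mmp9, a matrix protease gene of neutrophils among other cells, was at 0.27, 0.22 and 0.12 FPKM in Control and 1.10, 5.18 and 1.06 FPKM in DSS. It rose (log2 change 1.32, limma adjusted p = 0.00962), but it passed the filter only through its DSS values, so the p-value is a description. Listed genes of this region thus had both directions, but Slpi and Wfdc2 were chosen for theirs, so this is a description. Over all features tested, 79.2% were called higher and 20.0% lower.

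Wfdc18 has a listed WAP neighbour, Wfdc17, whose centre lies 3.88 kb before the Wfdc18 start site. Wfdc17 encodes a WAP protein known from activated microglia and macrophages and did not enter the choice of the 3 genes. It was at 10.0, 9.91 and 11.1 FPKM in Control replicates 1 to 3 and at 35.5, 32.3 and 28.1 FPKM in DSS replicates 1 to 3, and rose by 1.53 on the log2 scale (SE 0.27; adjusted p = 0.00326, limma). In DSS, Wfdc17 was highest in replicate 1, where Wfdc18 was lowest, and its libraries stayed within a narrow range. The other listed coding genes within 500 kb were Ccl3, a macrophage chemokine, Mmp28, a matrix protease, and 1700020L24Rik. Each had higher values in all DSS libraries than in any Control library, as did 77.4% of all listed features, with Ccl3 at 0.36, 0.08 and 0.40 FPKM in Control and 1.10, 5.10 and 0.75 FPKM in DSS. Of the 23 WAP domain genes, 4 were listed (Slpi, Wfdc17, Wfdc18 and Wfdc2), all tested. Wfdc17 is the 1 of them whose direction was not part of the choice. Its rise is shared by 79.2% of all tested features, which were called higher, so its p-value is a description.

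**Figure D4:**
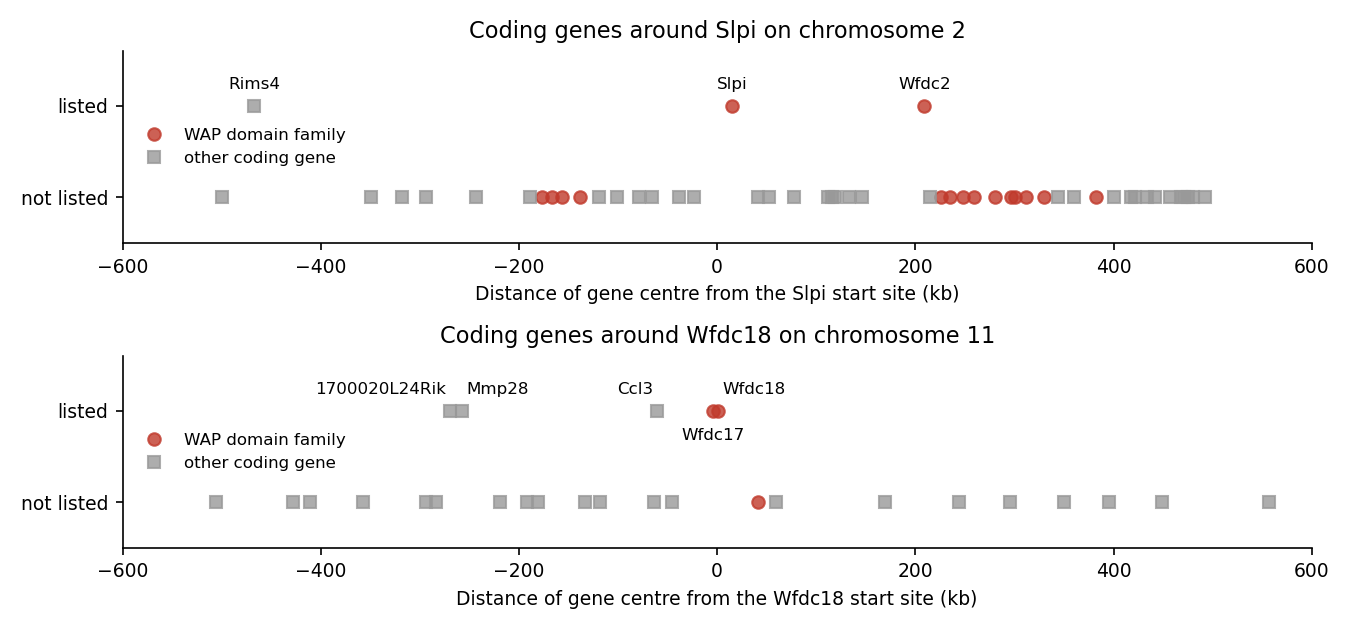
Protein-coding genes within 500 kb of the start sites of Slpi (top) and Wfdc18 (bottom), plotted at the distance of the gene's centre in kb and split by whether the gene is among the 912 features; WAP domain genes are red circles, others grey squares. Of 16 WAP domain genes around Slpi, only Slpi and Wfdc2 are listed, and around Wfdc18 the listed WAP genes are Wfdc17 and Wfdc18.

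Elastase and cathepsin G, which Slpi is known to inhibit, are not among the 912 features. They have no value here, so nothing can be said of their levels, and the rule by which features were listed is not stated. Of 17 leukocyte serine proteases, elastase and cathepsin G among them, only the mast cell protease Mcpt4 was listed, at 0.38, 0.16 and 0.39 FPKM in Control and 1.76, 1.09 and 1.08 FPKM in DSS replicates 1 to 3. It rose (log2 change 0.81, limma adjusted p = 0.00409), but it passed the filter only through its DSS values, so the p-value is a description. Of 39 other trypsin-fold proteases 5 were listed and 3 tested, and all 3 rose. They were the urokinase gene Plau (0.98), the kallikrein Klk15 (0.94) and the tissue plasminogen activator gene Plat (0.86). Their median was 0.94, against 0.96 over all 576 features tested. Klk15, at 0.15, 1.07 and 0.97 FPKM in Control replicates 1 to 3, passed the filter only through its DSS values. Prss22, an epithelial serine protease below the filter, was listed at 0 in every Control replicate, and at 0.44, 4.50 and 0.83 FPKM in DSS replicates 1 to 3.

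Other genes of protease inhibitor families moved mostly upward as well. Whether each gene on that list inhibits a protease was not examined. Of 59 genes 10 were listed and 7 tested, of which 6 rose and 1 fell (median log2 change 1.15). Serpina3n, an acute-phase serpin that inhibits granule proteases, went from 20.9, 27.5 and 26.6 FPKM in Control to 104.7, 166.7 and 66.8 FPKM in DSS replicates 1 to 3 (log2 change 2.04, limma adjusted p = 0.00365). The related serpins Serpina3m (1.53) and Serpina3g (1.15) and Serpinf1, the gene of pigment epithelium-derived factor (1.05), also rose. Serpina3m passed the filter only through its DSS values. The single fall, named after its value was seen, was Itih2, a gene of the inter-alpha-trypsin inhibitor family, from 4.89, 7.26 and 7.84 FPKM to 2.29, 2.49 and 4.23 FPKM (−0.95). Slpi and Wfdc18 had larger log2 changes than any tested gene of that list, but they were chosen for their rise, so this order is a description only. Tested genes linked to Slpi in inflammatory signalling, 6 of 32 on the list, rose in 6 cases, among them Nos2 (1.80), Tnf (1.10), Irak3 (0.83) and the lipopolysaccharide-binding protein gene Lbp (0.81). With 79.2% of all tested features called higher, these counts are close to the background. Il1b, among the signalling genes counted, passed the filter only through its DSS values. After centring on the median of the tested features, the calls of Mcpt4, Plau, Klk15 and Plat were lost. Only Serpina3n and Itih2 of the inhibitor list and Nos2 of the signalling genes passed.

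**Figure D5:**
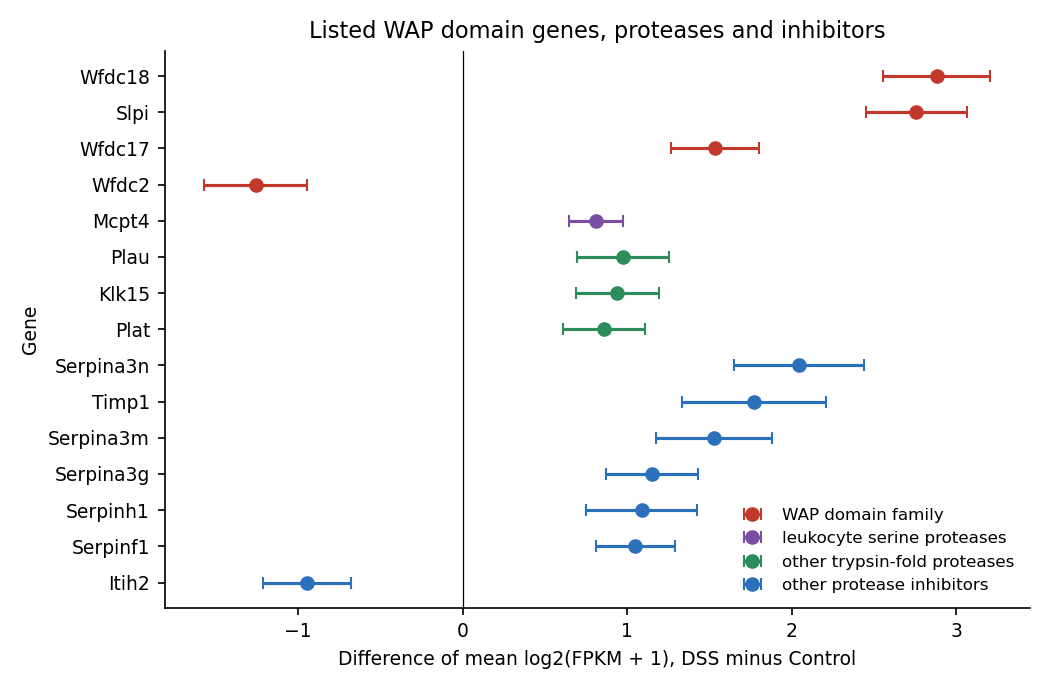
Difference of mean log2(FPKM + 1), DSS minus Control, with standard errors from limma. Shown are the tested genes on the lists of WAP domain genes, leukocyte serine proteases, other trypsin-fold proteases and other protease inhibitors. Wfdc18 (2.88) and Slpi (2.76) lie furthest to the right, and Wfdc2 (−1.26) and Itih2 (−0.95) are the genes below 0. Slpi, Wfdc18 and Wfdc2 were chosen for their direction.

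Of 41 secreted epithelial defence genes, 10 were listed and 7 tested, of which 2 rose and 5 fell, against 79.2% higher and 20.0% lower over all features tested. The log2 change was larger in size than that of Wfdc2 in 4 of the 5 that fell: Ang4, an antimicrobial ribonuclease gene (−5.58), Mptx1, a mucosal pentraxin gene (−5.38), and the resistin-like genes Retnlb (−2.81) and Retnla (−2.63). Ang4 spread widely in Control, at 608, 84.5 and 6.87 FPKM in replicates 1 to 3, and was at 0.18, 1.44 and 0.29 FPKM in DSS. The 2 rises, of S100a8 and of the serum amyloid A gene Saa3 (1.73), passed the filter only through DSS, and neither was called after centring. S100a8 is on the list of neutrophil markers too and is counted again there. The fall of Saa1 was not called without Control replicate 3 or without the pair of libraries of conflicting description, and that of Retnlb was not called without DSS replicate 1. The summed FPKM of the list was between 2915 and 7439 in Control and between 223 and 415 in DSS, and Mptx1 alone made up 6404, 2711 and 2312 FPKM of the Control sums.

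Markers of several cell types moved with the groups, and their part in the values of the 3 genes was not tested. The counts of markers called stand against 79.2% of all tested features called higher and 20.0% called lower. Absorptive colonocyte markers (7 of 24 listed, all 7 tested and lower, among them Trpm6, Car4, Slc26a3 and Slc51b) summed to 984, 1284 and 1417 FPKM in Control replicates 1 to 3 and to 478, 183 and 603 FPKM in DSS replicates 1 to 3. That order of the 6 libraries, compared after the values were seen, is the order of Wfdc2, and 19 of the other 114 features that fell (16.7%) had it too. The place of DSS replicate 1 in the Wfdc2 order was not resolved beyond counting error. The sum is mostly Car4 (589, 743 and 852 FPKM in Control replicates 1 to 3), the 1 marker of the 7 with that order. Slc26a3, for example, was at 89.98, 35.91 and 88.09 FPKM in DSS. Wfdc2 stood at 0.0732, 0.0711 and 0.0720 of the colonocyte sum in Control and at 0.0746, 0.176 and 0.0674 in DSS. The share of this sum, which Car4 dominates, lay between 0.0674 and 0.0746 in 5 of 6 libraries and was higher in DSS replicate 2. The calls of Slc20a1, Slc26a2 and Slc4a4 within that list were lost without Control replicate 2, leaving 4 of 7, and were lost again without the 2 libraries of conflicting description. Slc26a2 was also lost without Control replicate 3, and Slc4a4 without DSS replicate 1.

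Regenerating epithelium markers (3 of 20 listed: Plet1, Anxa8 and Cldn1, all 3 higher) summed to 41.9, 31.0 and 21.1 FPKM in Control and to 136, 211 and 190 FPKM in DSS replicates 1 to 3, in the same order of DSS libraries as Slpi and Wfdc18. Anxa8 and Cldn1 had that order too, but Plet1 was highest in replicate 3 (36.22, 48.43 and 81.47 FPKM). Slpi stood at 0.287, 0.291 and 0.261 of that sum in DSS, but at 0.120, 0.215 and 0.373 in Control, where the summed markers and Slpi ran in opposite order. Wfdc18 stood at 0.103, 0.158 and 0.0999 of the sum in DSS. Neutrophil markers (7 of 18 listed, 4 tested and higher, S100a8, Csf3r, Mmp9 and Retnlg) summed to 2.34, 1.92 and 1.94 FPKM in Control and to 15.0, 58.8 and 8.54 FPKM in DSS. The 4 tested were below 1 FPKM in every Control library and passed the filter only through DSS, so their direction was largely set by the filter. Without the filter 5 of the 7 were called, all higher. The sum was highest in DSS replicate 2 like Slpi, but lowest in DSS replicate 3, where Slpi was second highest. The neutrophil receptor gene Cxcr2 was listed at 0 in Control replicates 1 and 2. The Retnlg call was lost when Control replicate 2, either of the first 2 DSS libraries, or the pair of conflicting description was left out, and after centring it was the 1 neutrophil marker called. Macrophage markers (5 of 17 listed and tested, 4 higher, among them Cd68, Ccr2, Cx3cr1 and Fcgr1) summed to 16.1 to 21.8 FPKM in Control and to 48.2, 44.5 and 39.6 FPKM in DSS replicates 1 to 3, the order of the DSS values of Wfdc17. Cd68 (31.58, 25.59 and 24.82 FPKM in DSS) makes up most of that sum, while Ccr2 and Fcgr1 were highest in DSS replicate 2, as Slpi and Wfdc18 were. None of the macrophage markers passed after centring. The listed squamous epithelium marker, Krt14 (1 of 24), was at 0.20 to 0.41 FPKM in Control and at 0.66, 3.69 and 0.92 FPKM in DSS, the order of Slpi and Wfdc18 at low levels. Plasma cell markers (7 of 17 listed, all 7 higher, among them Igkc, Ighg2c, Ighg3 and Prdm1) had their highest sum, most of it Igkc, in DSS replicate 1, whereas Ighg3 and Prdm1 were highest in replicate 2. After centring 3 of the 7 passed, and Igkc and Prdm1 were among those lost. Goblet cell markers (15) and housekeeping genes (10) had 0 listed members.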

How the data were processed

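Colon RNA was sequenced in 12 libraries (NEBNext Ultra kit, 1 µg of input RNA), per the labels' protocols. Each library's deposited file gives FPKM to 2 decimals. The submitters' processing notes name bcl2fastq, FastQC, fastp and mm10; for the aligner, counter, strand setting, annotation and choice of features the sources used here give nothing. The 3 genes and 14 gene lists (341 genes) were chosen with earlier results of these data known.

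Identifiers were matched to GENCODE M21 (GRCm38). Library totals were recovered by scanning for the total at which genes with exons under 1200 bases gave whole fragments (tolerance at most 0.2). At the chosen totals 88.3 to 94.2% of 118 to 120 genes were whole, against 44.2 to 51.7% at the next best. That comparison left out totals close to the chosen one and its multiples, which give whole fragments too. Slpi and Wfdc2 are among those genes and Wfdc18 is not. Listed features took 3.57% of fragments in Control and 4.26 to 5.40% in DSS, so their changes hardly rescale other FPKM. Within a group, any pair of libraries had equal values for at most 25 of 912 features.

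For testing, limma 3.58.1 (R 4.3.3) was fitted to log2(FPKM + 1) of all 12 libraries with 1 mean per group and a trended spread; features without a value in the BXD files (which list 8 and 95 features), the 3 genes included, were fitted on the 6 Control and DSS libraries. Tests were two-sided, and p-values were adjusted by Benjamini-Hochberg over 576 features. That scale understates changes of low genes. Poisson and Clopper-Pearson intervals are exact at 95%. Named genes are the 3 genes, other listed WAP genes, the 3 nearest patterns of each, and up to 4 members per list with the smallest adjusted p. Listed neighbours and genes completing a count were added after their values were seen. Alternatives were other constants and filters, centring, a replicate block, fewer libraries and, chosen after seeing the data, transcript lengths. Upstream sequences are from RefSeq (GRCm38.p6), in which all 3 genes matched.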

Additional observations from a re-analysis of the deposited data

How the results depend on the processing

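The log2 changes of Slpi, Wfdc18 and Wfdc2 and the differences of their 3 ratios kept their direction under every alternative run. Leaving out 1 library at a time gave 2.60 to 2.92 for Slpi, 2.55 to 3.15 for Wfdc18 and −1.40 to −1.15 for Wfdc2. With 0.1 FPKM as the constant Wfdc18 stood at 3.35. Subtracting each library's median over the tested features, which lowers all changes because most listed features rose, gave 1.95 for Slpi, 2.08 for Wfdc18 and −2.06 for Wfdc2; it left 70 features higher in DSS against 456, and 26 genes of the fixed lists called against 52. By list, centring left 0 of 3 trypsin-fold proteases, 1 of 6 rises on the list of other inhibitors, 1 of 6 signalling genes and 0 of 4 macrophage rises. Without the low-value filter 708 features were higher, and with a filter of 5 FPKM 196 were higher, 68 lower and 31 list genes called, since fewer were tested. From FPKM + 1 the log2 difference of the ratio of Slpi to Wfdc18 was −0.13 and of Wfdc2 to Wfdc18 −4.14. Per transcript length the log2 ratio of Slpi to Wfdc18 was 0.92 in Control against 1.72 and 0.45 in DSS against 1.25, and that of Wfdc2 to Wfdc18 was 4.69 in Control against 5.49 and −0.0016 in DSS against 0.80, so the order of those 2 genes in DSS depends on the length used. With a replicate block 457 features rose and 113 fell. Deviations of libraries with the same number had correlations of −0.05, 0.02 and 0.08, and those with different numbers lay between −0.13 and 0.10. With 3 libraries per group these values do not settle whether equal numbers mark a shared animal or batch, which the labels do not say. Wfdc18 rests on 29 to 46 fragments in Control, which limits the precision of its ratios there.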
